A study of Mus musculus with 6 samples.

Results

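The 33 genes described here encode proteins of skeletal muscle fibres. They were taken by name, through the Ensembl identifier of each symbol, from a table of 54532 mouse genes, and all 33 were found. The list holds 12 genes of fast fibres, 4 of slow fibres, 2 of calcium release and 5 of energy supply. The other 10 were listed under sarcomere, Z-disc and cytoskeleton without regard to fibre type.

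RNA was sequenced from 6 whole tumors that grew from a mouse melanoma line labelled BRAFV600EPTEN-/-, 3 of them labelled Gli2CA and 3 labelled NTC. Both groups share the line's alleles, culture in puromycin, and implantation of 1000000 cells in 100 uL of a mixture of matrigel and PBS into C57Bl/6 mice, with harvest at day 28. The labels give Gli2CA and NTC as genotypes of the implanted cells, and they name neither the site of implantation nor the animal behind each tumor. A whole tumor holds host tissue beside the implanted cells, and because both are of mouse origin the table does not separate their RNA. Nothing in the labels ties the tumors to separate animals, so a p-value below measures the variation among these 6 samples alone, some of which may be technical.

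The targeted gene went against its label. Gli2 had 3.21, 5.82 and 1.61 FPKM in the tumors labelled Gli2CA, against 8.88, 11.1 and 7.96 FPKM in the NTC tumors. FPKM counts fragments per kilobase of a transcript after scaling to the depth of each library. All 3 tumors labelled Gli2CA thus lay below all 3 NTC tumors, with a log2 fold change of -1.40 (SE 0.38) and an adjusted p of 0.0853 in limma, which missed the threshold of 0.05. The sources used here do not say whether the row counts the transcript of the introduced construct, so every direction below is that of the library labels.

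A muscle fibre contracts when myosin filaments pull on actin filaments within the sarcomere. Calcium released from the sarcoplasmic reticulum binds troponin C, and troponin I and troponin T pass the change on to the thin filament. Fast and slow fibres build this machine from different members of the same families, so the set of troponins, myosins and light chains tells the fibre types apart. Xirp1 and Xirp2 encode Xin proteins, which bind and stabilise actin filaments and are best known from the junctions of heart and skeletal muscle.

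The start of Acta1, the actin of the skeletal thin filament, is shown as the gene of the common pattern, with the start of Ckm, the muscle creatine kinase. Those of the slow troponins Tnni1 and Tnnc1 follow, because these genes departed from it. Each window runs 250 bases before to 50 bases after the start and is taken from RefSeq on build GRCm38.p6: Acta1 from chr8:123894726-123895025 on the minus strand, Ckm from chr7:19410844-19411143 on the plus strand, Tnni1 from chr1:135799171-135799470 on the plus strand, which is 1 of 2 windows listed for it, and Tnnc1 from chr14:31208062-31208361 on the plus strand. Capitals mark matches, on either strand, to the E-box CAGCTG, the MCAT element CATTCC, the TATA box TATAAA and the CArG box.
Acta1: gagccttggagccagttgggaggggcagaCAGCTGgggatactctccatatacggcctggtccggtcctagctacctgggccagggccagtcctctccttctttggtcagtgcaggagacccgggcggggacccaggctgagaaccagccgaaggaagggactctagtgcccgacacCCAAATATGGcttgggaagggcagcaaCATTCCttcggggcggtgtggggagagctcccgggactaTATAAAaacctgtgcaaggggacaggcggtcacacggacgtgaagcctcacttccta
Ckm: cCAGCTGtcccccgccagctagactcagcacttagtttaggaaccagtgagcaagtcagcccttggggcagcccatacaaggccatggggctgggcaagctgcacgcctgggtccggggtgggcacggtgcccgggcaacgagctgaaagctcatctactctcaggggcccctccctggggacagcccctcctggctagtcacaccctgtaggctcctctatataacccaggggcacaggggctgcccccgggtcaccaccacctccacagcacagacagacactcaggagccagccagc
Tnni1: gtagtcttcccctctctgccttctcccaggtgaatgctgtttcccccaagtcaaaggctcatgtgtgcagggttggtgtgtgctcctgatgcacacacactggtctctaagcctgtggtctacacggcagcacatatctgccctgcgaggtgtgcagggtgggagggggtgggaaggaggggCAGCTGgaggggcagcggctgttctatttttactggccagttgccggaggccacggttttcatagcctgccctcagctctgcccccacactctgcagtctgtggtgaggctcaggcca
Tnnc1: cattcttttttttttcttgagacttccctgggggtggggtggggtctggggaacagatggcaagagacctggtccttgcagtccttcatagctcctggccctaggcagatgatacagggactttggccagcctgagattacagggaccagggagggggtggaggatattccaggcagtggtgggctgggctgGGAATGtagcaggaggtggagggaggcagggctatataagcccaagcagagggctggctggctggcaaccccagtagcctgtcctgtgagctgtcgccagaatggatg

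The RefSeq table held 30 windows for 26 of the 33 genes, among 32851 windows in all. The E-box CAGCTG stood in 16 of the 30 windows, against 16.3% of all windows. CATTCC stood in 9, against 14.7% of all windows, and TATAAA in 6, against 13.6%. A loose MEF2 pattern, with any base allowed at its middle positions, was found in 4 (Des, Smpx, Ttn and Xirp2), against 3.69% of all windows. Which bases stood at those positions was not tested, so the matches need not be full MEF2 sites. The CArG box was found in 2 (Acta1 and Myh4), against 1.63%. These matches describe letters in the windows and say nothing of whether a factor binds there.

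Muscle RNA differed between single tumors far more than between the labelled groups. Fragments of the 33 genes summed to 36783, 1826 and 12719 in the tumors labelled Gli2CA, against 2277, 2567 and 52021 in the NTC tumors, where the libraries held 16225286 to 22274171 fragments. Scaled to depth, that was 1872, 112.5 and 630.2 per 1000000 fragments in the Gli2CA tumors, against 102.2, 121.5 and 2935 in the NTC tumors. NTC replicate 3, Gli2CA replicate 1 and Gli2CA replicate 3 were thus the tumors with the most muscle RNA, in that order, and the groups overlapped fully. Xirp1, which ran against the other genes, held 1189 of the 2277 fragments in NTC replicate 1 and 918 of the 2567 in NTC replicate 2. Without Xirp1, the median log2(FPKM + 0.5) was 0.30 in Gli2CA replicate 2, against -0.58 and -0.51 in NTC replicates 1 and 2. The sums therefore do not rank the 3 tumors poor in muscle RNA. The means of 872 ± 904 per 1000000 fragments in the Gli2CA group and 1053 ± 1630 per 1000000 fragments in the NTC group (SD, n = 3 each) had spreads larger than the means. In bulk tissue, fewer muscle cells and less muscle RNA per cell cannot be told apart.

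The genes moved together across these tumors. NTC replicate 3, Gli2CA replicate 1 and Gli2CA replicate 3 were the 3 highest tumors for 28 of the 33 genes, and they stood in that order for 25. Both counts include Tnnc2, which was not tested and had at most 6 fragments in any tumor. Of the 32 tested genes of the list, the same 3 tumors were highest for 27. Among 15807 tested genes with a symbol, they were highest for 4.23%, a description given after the order had been seen. The median level of the 33 genes was 19.5, 0.847 and 5.54 FPKM in the Gli2CA tumors, against 0.173, 0.207 and 32.8 FPKM in the NTC tumors. In both NTC replicate 1 and NTC replicate 2, 23 of the 33 genes were under 1 FPKM. Myh2, Myh4 and Pvalb had the same 3 tumors highest but Gli2CA replicate 1 first. The 5 genes with another set of highest tumors were Tnnt1, Tnni1, Tnnc1, Pygm and Xirp1.

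**Figure D1:**
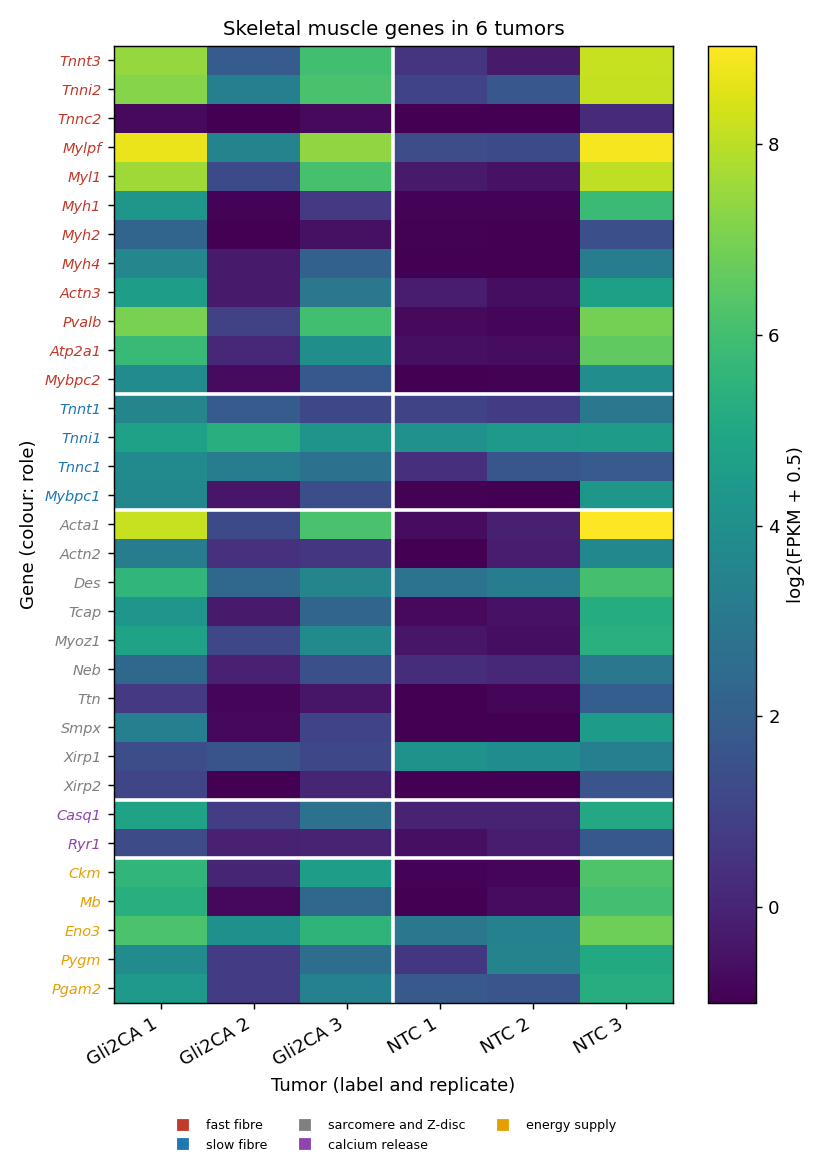
Level of each of the 33 genes in each tumor, as log2(FPKM + 0.5), with the tumors labelled Gli2CA left of the NTC tumors, genes grouped by role and white lines between groups. Most rows are bright in Gli2CA 1, Gli2CA 3 and NTC 3, while Xirp1, Tnni1 and Tnnc1 depart from that pattern.

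Acta1 had the largest standard error of the tested genes on the list. The gene, on chromosome 8 (123891769 to 123894751, GRCm38), had 289.7, 1.85 and 71.3 FPKM in the Gli2CA tumors, against 0.131, 0.413 and 521 FPKM in the NTC tumors. NTC replicate 3 and NTC replicate 1 were therefore the highest and the lowest of all 6 tumors, and the library of NTC replicate 1 held 3 Acta1 fragments. Nebulin (Neb), the long ruler of the thin filament, had 4.74, 0.445 and 2.22 FPKM in the Gli2CA tumors, against 0.740, 0.587 and 7.64 FPKM in the NTC tumors, the same 3 tumors being highest. Neither was called: the log2 fold changes were 2.45 (SE 2.52) for Acta1 and 0.10 (SE 0.83) for Neb.

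The fast troponins followed Acta1. Tnnt3, fast troponin T, had 174.8, 3.27 and 62.8 FPKM in the Gli2CA tumors, against 0.953, 0.335 and 294 FPKM in the NTC tumors. Tnni2, fast troponin I, had 146.5, 9.55 and 71.1 FPKM in the Gli2CA tumors, against 1.51, 2.76 and 283 FPKM in the NTC tumors. For both, NTC replicate 3 was highest and NTC replicates 1 and 2 were lowest, so the groups overlapped. Tnnc2, fast troponin C, was the exception in level: it had 1, 0 and 1 fragments in the Gli2CA tumors, against 0, 0 and 6 in the NTC tumors, and it did not pass the filter for testing. In the gene models 592 of its 800 exon bases (74.0%) are shared with Ube2c on the opposite strand, and the part of that overlap in its low value was not tested.

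Mylpf had the highest FPKM of the 12 fast genes in each of the 3 tumors rich in muscle RNA. This gene, the fast regulatory light chain of myosin, had 421, 10.8 and 162.5 FPKM in the Gli2CA tumors, against 2.07, 1.86 and 478 FPKM in the NTC tumors. Myl1, the fast essential light chain, had 193.2, 1.88 and 69.2 FPKM in the Gli2CA tumors, against 0.327, 0.207 and 267 FPKM in the NTC tumors. In each case NTC replicate 3 was highest, Gli2CA replicate 1 came next, and NTC replicates 1 and 2 were the lowest. The fast myosin-binding protein Mybpc2 and the fast alpha-actinin Actn3, a Z-disc protein, kept the same 3 tumors highest, with 13.9 and 23.9 FPKM in Gli2CA replicate 1, against 14.6 and 25.5 FPKM in NTC replicate 3.

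The heavy chains did not scale together. Myh1 (fast type 2X), Myh2 (2A) and Myh4 (2B) lie side by side on chromosome 11, and the sources used here do not say how reads shared by these near-identical copies were assigned, so their split is uncertain. Myh1 had 19.5, 0.0396 and 1.08 FPKM in the Gli2CA tumors, against 0.0385, 0.0406 and 56.5 FPKM in the NTC tumors. Myh4 had 11.8, 0.331 and 3.79 FPKM in the Gli2CA tumors, against 0, 0 and 9.03 FPKM in the NTC tumors. Thus NTC replicate 3 was highest for Myh1 but Gli2CA replicate 1 for Myh4, and NTC replicates 1 and 2 were at or near 0 for both. Myh2 was low everywhere, at 4.27, 0.0136 and 0.186 FPKM in the Gli2CA tumors, against 0.0198, 0 and 2.21 FPKM in the NTC tumors.

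Relative to NTC replicate 3, Myh1 stood at 34.5% in Gli2CA replicate 1 (95% interval 32.6 to 36.4%) and at 1.92% in Gli2CA replicate 3 (1.56 to 2.33%). Myh4 stood at 131% (120.6 to 142.4%) in Gli2CA replicate 1 and 42.0% (37.5 to 47.0%) in Gli2CA replicate 3. The intervals of these genes do not meet; they are exact, rest on the recovered fragments and cover counting error only. Of the summed FPKM of Myh1, Myh2, Myh4 and the slow Myh7, Myh1 made up 53.2% in Gli2CA replicate 1 and 20.97% in Gli2CA replicate 3, against 83.4% in NTC replicate 3. The share of Myh4 was 32.3% in Gli2CA replicate 1 and 73.3% in Gli2CA replicate 3, against 13.3% in NTC replicate 3. These are single libraries chosen for their muscle RNA, so the shares describe those tumors and not the groups.

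Over the 27 genes whose 3 highest tumors were the shared ones, leaving out Tnnc2, the level in Gli2CA replicate 1 had a median of 63.7% of that in NTC replicate 3, with a range from 30.6% (Ttn) to 193.6% (Myh2). In Gli2CA replicate 3 the median was 19.6%, with a range from 1.92% (Myh1) to 50.7% (Pvalb). Pvalb, the calcium buffer parvalbumin of the fastest fibres, had 127.0, 1.41 and 62.4 FPKM in the Gli2CA tumors, against 0.0931, 0.0490 and 123.1 FPKM in the NTC tumors. It was nearly level between Gli2CA replicate 1 and NTC replicate 3. Atp2a1, the fast calcium pump of the sarcoplasmic reticulum, had 54.4, 0.623 and 15.4 FPKM in the Gli2CA tumors, against 0.173, 0.137 and 95.9 FPKM in the NTC tumors.

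**Figure D2:**
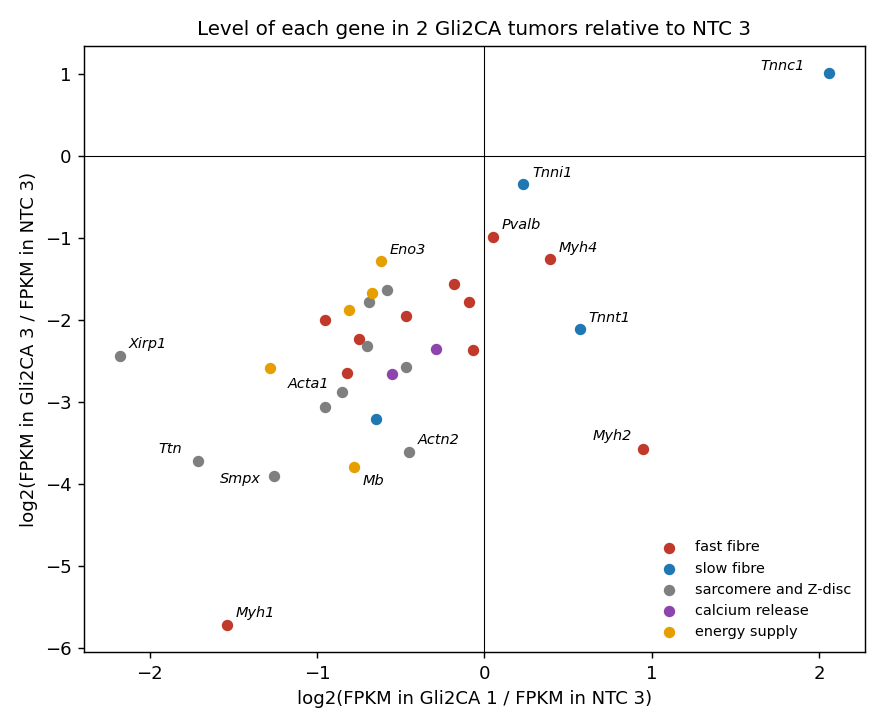
Each point is 1 of 32 genes (all but Tnnc2), with the log2 ratio of its FPKM in Gli2CA 1 to that in NTC 3 on the horizontal axis and the ratio of Gli2CA 3 to NTC 3 on the vertical axis; lines at 0 mark equal levels. Tnnc1 is above both lines, and Myh1 and Myh4 lie far apart, at 1.92% and 42.0% of NTC 3 in Gli2CA 3.

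Of the 4 slow-fibre genes on the list, 1 had the shared 3 tumors highest. Mybpc1, the slow myosin-binding protein, had 12.4, 0.270 and 2.12 FPKM in the Gli2CA tumors, against 0.0218, 0 and 19.5 FPKM in the NTC tumors. Tnnt1, slow troponin T, had 11.3, 3.23 and 1.75 FPKM in the Gli2CA tumors, against 1.59, 1.21 and 7.59 FPKM in the NTC tumors, with Gli2CA replicate 2 above Gli2CA replicate 3. Tnni1, slow troponin I, had 26.3, 38.4 and 17.8 FPKM in the Gli2CA tumors, against 16.1, 21.1 and 22.5 FPKM in the NTC tumors. The lowest and the highest tumor were thus within the same order of magnitude, and the highest value stood in Gli2CA replicate 2, which had few other muscle transcripts.

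Tnnc1, the troponin C of slow and cardiac muscle, was the gene with the groups apart in the upward direction. It had 13.3, 8.94 and 6.43 FPKM in the Gli2CA tumors, against 0.823, 2.67 and 3.19 FPKM in the NTC tumors, from 171, 95 and 85 fragments against 12, 37 and 37. All 3 Gli2CA tumors lay above all 3 NTC tumors, including Gli2CA replicate 2, which was poor in other muscle RNA. The means were 9.55 ± 3.47 FPKM in the Gli2CA group and 2.23 ± 1.24 FPKM in the NTC group (SD, n = 3 each). The log2 fold change was 1.96 (SE 0.42), with an adjusted p of 0.0664 in limma, so it did not pass the test. Summed FPKM of a list of 10 cardiac genes was also higher in the Gli2CA tumors, at 2035 to 2530, than in the NTC tumors, at 495 to 1719, and came mostly from Nppb, a natriuretic peptide. Tnnt2, the cardiac troponin T, separated the groups as Tnnc1 did, with 90.4, 36.97 and 79.5 FPKM in the Gli2CA tumors, against 18.5, 20.4 and 17.97 FPKM in the NTC tumors. Its log2 fold change was 1.74 (SE 0.33), with an adjusted p of 0.0565 in limma. Groups were apart in the higher direction for 15.9% of all tested genes. The atrial peptide Nppa was at 0 in all 6 tumors and the heavy chain Myh6 was at 0.121, 1.03 and 0.260 FPKM in the Gli2CA tumors, against 0.236, 1.76 and 0.135 FPKM in the NTC tumors. None of the list was called, and 2 of its 6 tested genes had an unadjusted p under 0.05, against 27.5% of all tested genes. The part of the cells behind these genes in the level of Tnnc1 was not tested.

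A keratinocyte list of 8 genes also summed higher in the Gli2CA tumors, at 23.2 to 36.8 FPKM, than in the NTC tumors, at 3.99 to 6.00 FPKM, and nearly all of it was Krt14 and Krt10. Krt14 had 16.9, 2.05 and 29.7 FPKM in the Gli2CA tumors, against 0.0318, 0.369 and 0.0800 FPKM in the NTC tumors. Krt10 had 6.18, 22.5 and 6.84 FPKM in the Gli2CA tumors, against 3.80, 4.89 and 5.75 FPKM in the NTC tumors. Neither gene was called, with adjusted p-values of 0.0565 for Krt14 and 0.19 for Krt10 in limma. For both the groups were apart in the higher direction, as they were for 15.9% of all tested genes. The other 6 genes were at or near 0 in every tumor, among them Krt5, the partner of Krt14, and Trp63, the regulator of the basal layer, which had 4, 7 and 4 fragments in the Gli2CA tumors, against 11, 10 and 10 in the NTC tumors.

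The mean log2 level of the 12 fast genes minus that of the 4 slow genes was 1.19, -1.93 and 1.10 in the Gli2CA tumors, against -1.46, -1.87 and 2.08 in the NTC tumors. The difference was positive in the 3 tumors rich in muscle RNA and negative in the others, with means of 0.12 ± 1.78 and -0.42 ± 2.17 (SD, n = 3 each) for the Gli2CA and NTC groups. A list of 8 further slow-fibre genes was set beside it, since Tnni1 was well above 0 in every tumor. Fast minus further slow genes gave 3.34, 0.70 and 3.25 in the Gli2CA tumors, against 0.29, -0.07 and 4.92 in the NTC tumors, again highest in the same 3 tumors. The fast genes are among those that defined these tumors as rich, so both scores partly restate the amount of muscle RNA. Whether fibre types differed between tumors was not tested.

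Of those 8 further slow genes 6 were tested and none was called by limma. An unadjusted p under 0.05 was reached by 2 of the 6, against 27.5% of all tested genes. Myl2, the slow regulatory light chain, had 10.3, 0.371 and 1.59 FPKM in the Gli2CA tumors, against 0.180, 0.0948 and 0.452 FPKM in the NTC tumors. Myl3, the slow essential light chain, had 1.85, 0.541 and 0.435 FPKM in the Gli2CA tumors, against 0.0563, 0 and 0.142 FPKM in the NTC tumors. For both, Gli2CA replicate 1 was highest and NTC replicate 3 was far below it, unlike Acta1 and Myh1; the adjusted p-values were 0.159 and 0.113. Ankrd2, a stretch-responsive protein of slow fibres, had 4.90 FPKM in Gli2CA replicate 1 against 0.821 FPKM in NTC replicate 3, while the muscle LIM protein Csrp3 had 6.86 against 7.76 FPKM in the same tumors.

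**Figure D3:**
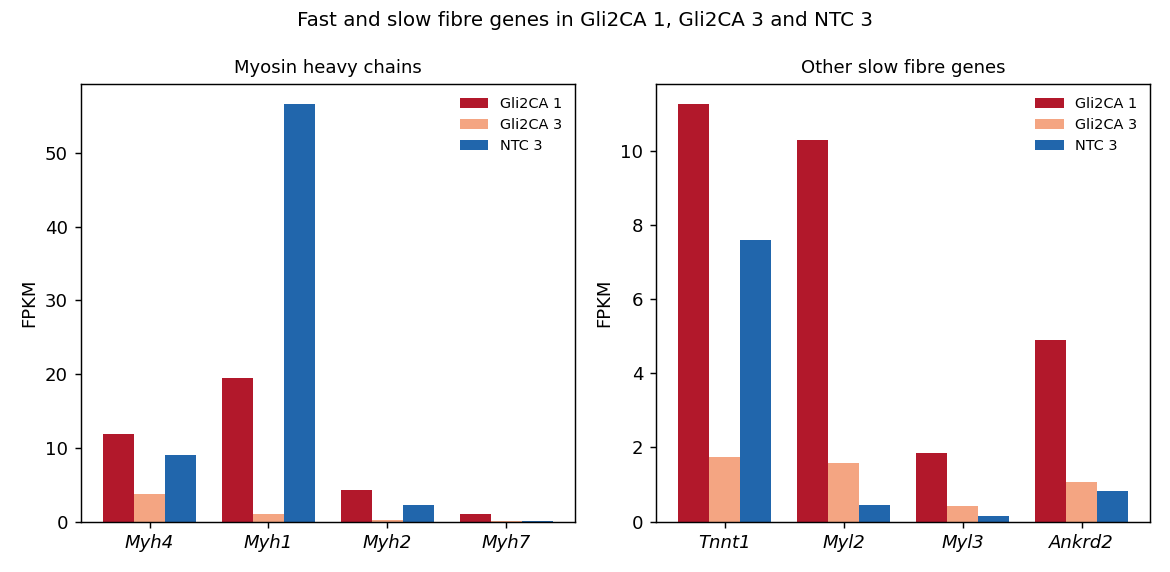
FPKM of myosin heavy chains (left) and of the slow-fibre genes Tnnt1, Myl2, Myl3 and Ankrd2 (right). There is 1 bar for each of the single tumors Gli2CA 1, Gli2CA 3 and NTC 3, with no error. Myh1 is highest in NTC 3 at 56.5 FPKM, whereas Myl2, Myl3 and Ankrd2 are highest in Gli2CA 1.

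Z-disc and cytoskeletal genes other than Xirp1 followed the shared order. Tcap (telethonin, which caps titin at the Z-disc) had 18.6, 0.325 and 4.34 FPKM in the Gli2CA tumors, against 0.0947, 0.200 and 36.01 FPKM in the NTC tumors. Smpx, a small protein of striated muscle, had 9.44, 0.0816 and 1.51 FPKM in the Gli2CA tumors, against 0, 0 and 22.6 FPKM in the NTC tumors, so that NTC replicate 3 was at least 120.2-fold above NTC replicate 2, taking 3 fragments per library as the floor. Both were highest in NTC replicate 3 and near 0 in the other NTC tumors. Des (desmin), the intermediate filament of all muscle types, kept a base in every tumor, at 48.6, 4.66 and 11.4 FPKM in the Gli2CA tumors, against 6.64, 8.92 and 67.4 FPKM in the NTC tumors. Actn2, Myoz1, Ttn and Xirp2, which encode alpha-actinin 2, a calcineurin-binding Z-disc protein, titin and the second Xin protein, also had the same 3 tumors highest.

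The calcium-release genes did likewise. Casq1, the calcium store protein of the reticulum, had 26.9, 1.28 and 6.43 FPKM in the Gli2CA tumors, against 0.485, 0.469 and 32.8 FPKM in the NTC tumors. Ryr1, the release channel, had 1.98, 0.452 and 0.463 FPKM in the Gli2CA tumors, against 0.161, 0.340 and 2.90 FPKM in the NTC tumors. Over the tumors Casq1 lay closest of all 15820 tested genes to the median pattern of the 32 tested genes of the list. Its root mean square difference was 0.12 on the log2 scale, a position its own membership helps to set.

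Energy-supply genes split by how much remained in the tumors poor in muscle RNA. Ckm had 48.2, 0.517 and 24.1 FPKM in the Gli2CA tumors, against 0.0290, 0.0611 and 76.5 FPKM in the NTC tumors. Mb (myoglobin, the oxygen store) had 38.1, 0.0819 and 4.74 FPKM in the Gli2CA tumors, against 0, 0.126 and 65.5 FPKM in the NTC tumors. These genes were near 0 in Gli2CA replicate 2 and NTC replicates 1 and 2. Relative to NTC replicate 3, Mb was at 58.2% in Gli2CA replicate 1 and 7.23% in Gli2CA replicate 3.

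By contrast Eno3, the muscle enolase, had 71.8, 15.9 and 45.5 FPKM in the Gli2CA tumors, against 7.29, 10.0 and 110.5 FPKM in the NTC tumors. Pgam2, the muscle phosphoglycerate mutase, had 21.1, 1.17 and 10.2 FPKM in the Gli2CA tumors, against 2.99, 2.65 and 37.1 FPKM in the NTC tumors. Both glycolytic genes kept at least 1 FPKM in every tumor. Pygm, the muscle glycogen phosphorylase, left the shared order through NTC replicate 2: it had 13.7, 1.19 and 5.54 FPKM in the Gli2CA tumors, against 1.03, 10.7 and 33.2 FPKM in the NTC tumors.

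Xirp1 ran against the shared order. On chromosome 9 (120013755 to 120023598, minus strand, GRCm38), it had 2.12, 2.58 and 1.79 FPKM in the Gli2CA tumors, against 17.3, 14.1 and 9.60 FPKM in the NTC tumors, from 128, 129 and 111 fragments against 1189, 918 and 524. All 3 Gli2CA tumors lay below all 3 NTC tumors, and within the NTC group the highest Xirp1 stood in replicate 1, which had the least muscle RNA, and the lowest in replicate 3, which had the most. The means were 2.16 ± 0.40 FPKM in the Gli2CA group and 13.7 ± 3.88 FPKM in the NTC group (SD, n = 3 each). Xirp1 fell in the tumors labelled Gli2CA, with a log2 fold change of -2.39 (SE 0.28) and an adjusted p of 0.0175 in limma. Summed FPKM of a list of 6 Schwann cell genes was 8.29 to 9.97 in the Gli2CA tumors and 18.7 to 24.8 in the NTC tumors. None of that list was called by limma, and 3 of its 5 tested genes had an unadjusted p under 0.05, against 27.5% of all tested genes, while Mag had a log2 fold change of -0.18 (SE 0.28). Its part in the level of Xirp1 was not tested.

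**Figure D4:**
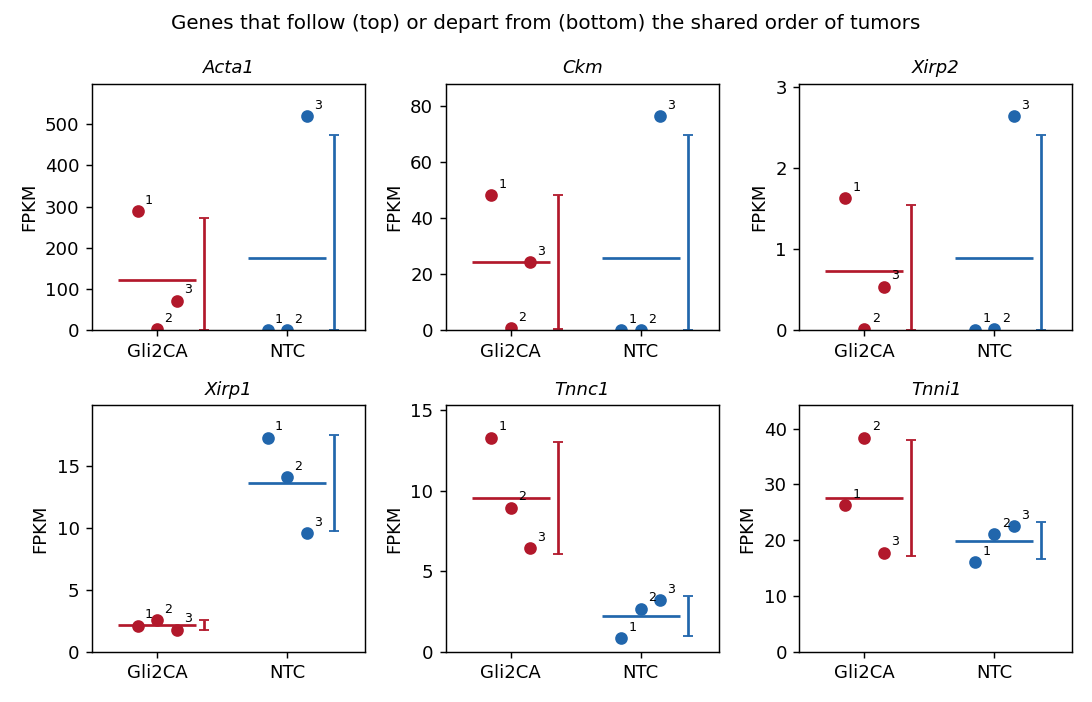
FPKM in each tumor of genes that follow the shared order (top) and of genes that depart from it (bottom), with Gli2CA left of NTC; points are tumors, numbered by replicate, lines are group means and bars are 1 SD, drawn down to 0 at most (n = 3 each). Xirp1 separates the groups, at 1.79 to 2.58 FPKM in Gli2CA against 9.60 to 17.3 FPKM in NTC.

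Set against the median of all other genes of the list, the log2 level of Xirp1 differed by -2.99, 1.33 and -1.50 in the Gli2CA tumors, against 4.74, 4.38 and -1.73 in the NTC tumors. It thus stood above the median in the 3 tumors poor in muscle RNA and below it in the 3 rich ones, in either group. The median of the other tested genes, which leaves out Tnnc2, was also entered as a covariate, an alternative chosen after seeing the data. Xirp1 then kept a log2 fold change of -2.26 and an adjusted p of 0.0236 in limma. Its relative Xirp2 showed no such gap: it had 1.63, 0.0103 and 0.534 FPKM in the Gli2CA tumors, against 0.00375, 0.0119 and 2.65 FPKM in the NTC tumors. Of 15820 tested genes ranked by closeness to the median pattern of the tested genes of the list, Xirp1 took place 15719 and Tnni1 place 7567.

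The call of Xirp1 rested on few libraries. Its adjusted p was 0.0524 without Gli2CA replicate 1, 0.0719 without Gli2CA replicate 3, 0.0947 without NTC replicate 1 and 0.0955 without NTC replicate 2, with log2 fold changes of -2.61 to -2.20 over all single omissions.

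Across the list, 32 of the 33 genes were tested and Xirp1 was the 1 gene called, in the lower direction, against 0.0822% of all tested genes called lower, 0.265% called higher and 0.348% called in either direction. The groups did not overlap for 2 of the 32 genes, Tnnc1 (higher) and Xirp1 (lower), against 33.8% of all tested genes, 15.9% higher and 17.9% lower. An unadjusted p under 0.05 was likewise reached by these 2 genes, against 27.5% of all tested genes. The other 30 genes had adjusted p-values of 0.40 to 0.997 in limma and standard errors of 0.30 to 2.52 on the log2 scale. The median standard error was 1.40 for the 32 genes and 0.29 for all tested genes. For most of the list a change of several fold was therefore not detectable in 3 tumors against 3.

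By role, the 11 tested fast genes had log2 fold changes with a median of 1.52 (0.01 to 2.86) and the 4 slow genes a median of 0.68 (0.40 to 1.96). The 10 sarcomere and cytoskeletal genes had a median of 0.25 (-2.39 to 2.45), the 2 calcium-release genes 0.62 and the 5 energy-supply genes 0.84 (-0.67 to 1.91). Over the 32 genes the median was 0.81, against -0.04 for all tested genes, and 27 estimates were positive. The size of this median depended on the scale: it was 1.42 with a pseudocount of 0.1 and 2.25 with limma-voom on the recovered fragments (29 positive). With the muscle level as a covariate, which takes out by construction what the genes share, it was -0.13, with 14 of 32 positive. A single library also decided its direction. Without Gli2CA replicate 1 the median was -0.08, with 15 of 31 positive, and without NTC replicate 3 it was 2.57, with 29 of 30 positive and 20 of 30 at an unadjusted p under 0.05, against 26.9% of all genes tested in that fit. Without Gli2CA replicate 2 it was 1.85, without NTC replicate 1 it was 0.15 and without NTC replicate 2 it was 0.17. In every single omission other than that of NTC replicate 3, only 2 or 3 genes of the list had an unadjusted p under 0.05. The share of all genes tested in those fits was 15.8 to 28.9%.

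**Figure D5:**
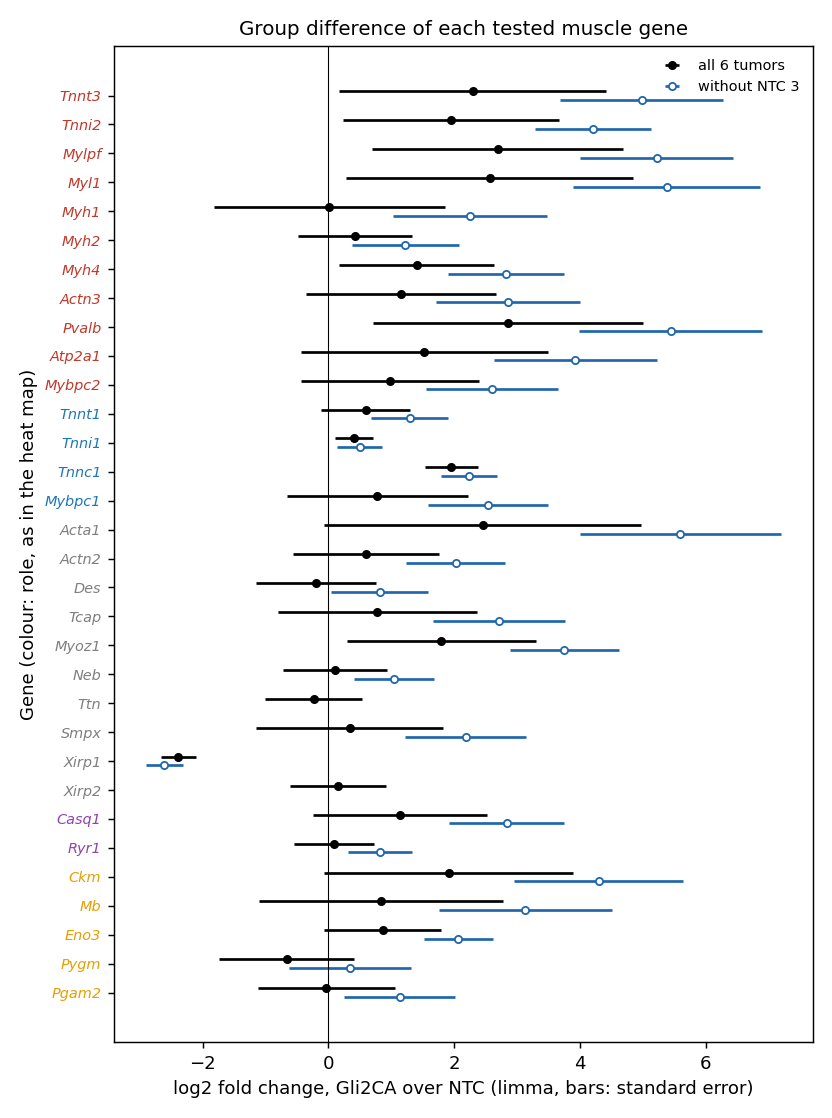
Log2 fold change of each of the 32 tested genes, Gli2CA over NTC, with its standard error from limma, over all 6 tumors (filled) and without NTC 3 (open); Ttn and Xirp2 have no open point because they did not pass the filter without that tumor. Filled points of the fast genes carry wide bars and move up without NTC 3, while Xirp1 stays near -2.39 (SE 0.28 over all tumors).

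Other gene lists were read to see what moved with these genes. Of a further list of 50 skeletal muscle genes, 49 were in the table and 40 tested; the 3 tumors rich in muscle RNA were highest for 30 of the 40. None was called by limma. An unadjusted p under 0.05 was reached by 2 of the 40, against 27.5% of all tested genes. The 2 genes were Hrc, a calcium-binding protein of the reticulum, and Sgca, alpha-sarcoglycan of the fibre membrane. Both stood with Xirp1 rather than with Acta1. Hrc had 4.08, 1.88 and 1.64 FPKM in the Gli2CA tumors, against 6.64, 11.6 and 10.8 FPKM in the NTC tumors, with an adjusted p of 0.0619. Sgca had 1.32, 2.38 and 1.64 FPKM in the Gli2CA tumors, against 3.75, 8.95 and 4.25 FPKM in the NTC tumors, with an adjusted p of 0.0806. The groups were apart for each, as they were in the lower direction for 17.9% of all tested genes. Neither gene passed the test.

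Of 15 genes of myogenic precursors, regeneration and denervation, 6 were tested and none was called. Against 27.5% of all tested genes, 1 of the 6 had an unadjusted p under 0.05. That gene was Chrna1, the alpha subunit of the muscle acetylcholine receptor, at 8.05, 2.53 and 8.47 FPKM in the Gli2CA tumors, against 0.870, 1.19 and 0.939 FPKM in the NTC tumors (adjusted p = 0.0642). Its groups were apart in the higher direction, as for 15.9% of all tested genes. NTC replicate 3 was as low as the other NTC tumors. The myogenic regulator Myf6 followed the shared order, with 32, 1 and 10 fragments in the Gli2CA tumors, against 0, 0 and 52 in the NTC tumors, and a log2 fold change of 0.10 (SE 0.71). Other regulators rested on fewer fragments: Myod1 had 7, 0 and 3 fragments in the Gli2CA tumors, against 0, 0 and 26 in the NTC tumors, and Myog 15, 0 and 0, against 0, 0 and 24. Myod1, Myog and Myf5, which had at most 3 fragments in any tumor, were not tested. All these regulators were chosen after their values were seen.

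Genes of other tissues were rarely highest in the same tumors, like most tested genes. The 3 tumors rich in muscle RNA were the highest for 0 of 10 smooth muscle genes, 0 of 10 adipocyte genes, 0 of 8 keratinocyte genes, 0 of 6 Schwann cell genes and 0 of 7 melanocyte genes, and for 1 of 10 cardiac genes. Among all tested genes with a symbol the share was 4.23%, so these counts do not set the lists apart. Of the keratinocyte list 2 genes were tested and of the melanocyte list 3, the rest failing the filter. Summed FPKM of the smooth muscle list ran from 150.8 to 229.4 in the Gli2CA tumors and from 174.7 to 302.0 in the NTC tumors. The adipocyte list ran from 75.6 to 311.1 in the Gli2CA tumors and from 31.5 to 336.4 in the NTC tumors. Melanocyte genes summed to 58.9 to 103.8 in the Gli2CA tumors and 95.9 to 186.2 in the NTC tumors. None of these lists held a gene called by limma.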

How the data were processed

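Per the labels' protocols, poly-T beads purified the messenger RNA of each tumor and random hexamers primed the cDNA. The authors deposited FPKM per gene for 54532 genes. Not given in the sources used here are the strand setting, annotation, genome build, aligner and counting tool. A symbol and gene model on GRCm38 (GENCODE M21) was found for 54495 genes. FPKM times the mean transcript length gave whole fragments, within 0.1, for 97.1 to 99.7% of low values (chance 20%), and these fragments gave depths of 16225286 to 22274171 and the counting intervals.

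With limma 3.58.1 (R 4.3.3), linear models with trended eBayes variances were fitted to log2(FPKM + 0.5) of the 15820 genes whose FPKM averaged 0.5 or more, two-sided, with Benjamini-Hochberg adjustment over all of them and a threshold of 0.05. Fold changes on this scale understate the change of low genes. Genes of high FPKM that rest on few fragments are prone to false calls in this fit; 2 of the 55 genes called had a mean under 10 fragments, and Xirp1 was not among them. With 3 tumors against 3, an exact permutation test of 1 gene could not give a p below 0.1.

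The named genes are the 33 genes, Gli2, up to 4 genes of each further list with the smallest p, and the 20 tested genes closest to the median pattern, leaving out predicted genes. Myh7, Nppa, Myh6, Krt5, Trp63, Mag, Myf5, Myf6, Myod1 and Myog fall outside it and were picked once their values had been seen. The genes and lists were chosen with earlier results of these data known. RefSeq windows were searched for motifs on both strands. Alternatives were pseudocounts, filters, scalings, sample weights, a replicate block, limma-voom and leaving out each tumor.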

Additional observations from a re-analysis of the deposited data

How the results depend on the processing

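Xirp1 stayed lower in the tumors labelled Gli2CA in all 19 alternatives and passed in 14; with no filter on low values its log2 fold change was -2.39 with an adjusted p of 0.155, and single omissions gave -2.61 to -2.20. Replicate numbers were not treated as pairs, because the labels do not state a pairing. Correlations of the deviations of same-numbered tumors were 0.353, 0.221 and 0.024. Those of tumors with unlike numbers ran from -0.285 to 0.078. Whether same-numbered tumors shared a batch was not tested. A replicate block raised the number of genes called in limma to 1928 and the number of the 32 genes called to 2. Genes called over the table numbered 145 with a filter at 1 FPKM, 3 with no filter, 36 with quantile scaling, 711 with protein-coding genes rescaled (99 higher and 612 lower, against 42 and 13 of 55, with the median of all genes at -0.29), 1588 with sample weights, 101 with robust variances, 105 with limma-voom, 25 with the muscle level as a covariate, and 4 to 119 over single omissions. Of the 32 genes, 0 were called with no filter, 2 with protein-coding genes rescaled and with sample weights (Xirp1 and Tnnc1), and 0 to 1 over single omissions; the cause was not tested. In 15 of the 32 genes, none of them called, the sign changed in at least 1 of 18 alternatives. That count leaves out the fit with the muscle level as a covariate, in which 14 of the 32 estimates were positive, against 27 in the main fit. Myh1 turned to -0.16 with a pseudocount of 1, -0.11 with quantile scaling and -0.012 with protein-coding genes rescaled, where Neb turned to -0.021. Ryr1 turned to -0.0049 and Pgam2 to 0.53 with sample weights. Ttn turned to 0.097 with a pseudocount of 0.1 and to 1.27 with limma-voom, which also gave Pgam2 0.076. Over single omissions the log2 fold changes ran from -0.081 to 1.29 for Tnnt1, -1.46 to 2.26 for Myh1, -0.31 to 2.02 for Actn2, -1.09 to 0.81 for Des, -0.65 to 3.13 for Mb, -0.37 to 0.82 for Ryr1, -0.31 to 2.72 for Tcap, -0.29 to 2.54 for Mybpc1, -0.13 to 2.60 for Mybpc2, -0.47 to 1.04 for Neb, -0.75 to 0.0816 for Ttn, -1.89 to 0.34 for Pygm, -0.82 to 1.13 for Pgam2, -0.73 to 2.18 for Smpx and -0.36 to 0.67 for Xirp2. Tumors with few muscle fragments limit the low values: 6 and 5 of the 33 genes had no fragment in NTC replicates 1 and 2.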

Other observations

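Tested genes outside the list of 33 were ranked by closeness to the median pattern of its 32 tested genes over the 6 tumors. The 20 closest had root mean square differences of 0.20 to 0.92 on the log2 scale. Of these 20, 13 were on the further muscle lists. The closest was Trdn, triadin of the calcium release complex, with 10.1, 0.135 and 2.72 FPKM in the Gli2CA tumors, against 0.0493, 0 and 19.1 FPKM in the NTC tumors. Of the 7 on no list, Eef1a2, an elongation factor of muscle and nerve, was closest, with 8.35, 0.0592 and 1.66 FPKM in the Gli2CA tumors, against 0, 0 and 15.5 FPKM in the NTC tumors. Ckmt2, the mitochondrial creatine kinase of striated muscle, had 5.24, 0 and 0.667 FPKM in the Gli2CA tumors, against 0, 0 and 4.14 FPKM in the NTC tumors. It was the 1 gene of the 20 with its highest level in Gli2CA replicate 1, and the other 19 peaked in NTC replicate 3. Tceal7, Hfe2, Pdlim3, Sh3bgr and Fitm1 were the other genes on no list.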
